A study of Mus musculus with 10 samples.

Results

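The genes of the mitochondrial respiratory chain were described in the single-cell RNA-seq (scRNA-seq) data of in vitro germline differentiation. They were chosen by symbol alone: genes beginning with *Nduf*, *Uqcr*, *mt-Nd*, *mt-Co*, *mt-Cyt*, *mt-Atp*, *Cox4*, *Cox5*, *Cox6*, *Cox7* or *Cox8*, together with *Sdha*, *Sdhb*, *Sdhc* and *Sdhd*. This rule was met by 89 of 27998 genes in the E14Tg2a table, 76 of them encoded in the nucleus and 13 in the mitochondrial genome. It was met by 90 of 32285 genes in the R1 table, with *Ndufb1-ps* as the additional nuclear gene. By symbol, the 76 nuclear genes of the E14Tg2a table comprised 38 of complex I, 8 complex I assembly factors, 4 of complex II, 8 of complex III and 18 of complex IV. The 13 mitochondrially encoded genes comprised 7 of complex I, 1 of complex III, 3 of complex IV and 2 of ATP synthase. A further 7 symbols of the reference annotation that would meet the rule, among them *Cox6c2* and *Ndufs6b*, were in neither table.

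Cells were profiled on a droplet platform that tags the 3′ end of each transcript and counts unique molecular identifiers (UMIs). All 8 E14Tg2a libraries came from this wild type male mouse embryonic stem cell (ESC) line: 2i ESC (kept with the inhibitors PD0325901 and CHIR99021 plus LIF), S+L ESC (serum plus LIF), epiblast-like cells (EpiLC) at d1, d2 and d3 of induction, epiblast stem cells (EpiSC), and embryoid bodies (EB) at d2 and d4. EB were made from d2 EpiLC with BMP4, SCF, LIF and EGF and contain primordial germ cell-like cells (PGCLC), and 135 barcodes listed as PGCLC in the study's supplement were found, 91 in d2 EB and 44 in d4 EB. The other 2 libraries were d4 EB of the male ESC line R1, either wild type (WT) or carrying catalytically dead MLL3 and MLL4 (Mll3/4 dCD, hereafter dCD). In dCD cells both proteins remain present without their histone methyltransferase activity, and the dCD line is clonal, so genotype and clone cannot be told apart. As the catalytic change leaves the transcripts in place, their counts do not check the dCD label.

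The respiratory chain passes electrons from NADH through complex I, or from succinate through complex II, to complex III and, by cytochrome c, to complex IV, which reduces oxygen. Complexes I, III and IV pump protons across the inner mitochondrial membrane, and ATP synthase uses the gradient to make ATP. Most subunits are encoded in the nucleus and imported, a few hydrophobic ones are transcribed and translated inside the mitochondrion, and complex II is entirely nuclear. Several complex IV subunits have a second isoform restricted to a tissue, such as heart and muscle, lung or testis. Pluripotent cells are known to shift between oxidative and glycolytic metabolism as they leave the naive state.

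Every condition had 1 library and cells are not replicates, so no difference was tested and no p-value is given. A level is a gene's UMI count in all cells of a group, per 1000000 UMIs counted there (CPM), a difference is a ratio of CPM, and the 95% intervals (exact) cover counting error only. A gene was called higher or lower where it had at least 100 UMIs over both groups and a ratio of at least 1.5-fold in either direction. Median UMIs per cell were 21658 to 36750 in the E14Tg2a libraries, 13187.5 in WT and 11751 in dCD, and library totals were 8757170 to 22887974 UMIs. Markers of the labelled stages were checked. *Klf4* was at 247 CPM in 2i ESC and 194 CPM in S+L ESC. *Dnmt3b* was at 798 CPM in d2 EpiLC, its highest level of the 8 E14Tg2a libraries. *Fgf5*, *Otx2* and *Pou3f1*, further markers of that stage, were not highest there. *Fgf5* was at 72.6 CPM against 147 CPM in EpiSC, and *Otx2* at 87.2 CPM against 135 CPM in d3 EpiLC. *Pou3f1* was at 257 CPM against 302 CPM in d1 EpiLC. *T* was at 84.5 CPM in EpiSC and 127 CPM in the listed d2 PGCLC. *Dppa3* was at 103 and 193 CPM in the listed d2 and d4 PGCLC against 1.62 and 2.69 CPM in the remaining EB cells. Barcodes occurring in more than 1 library numbered 8 in E14Tg2a and 0 in R1, and 0.589% to 6.23% of the cells of a library were called doublets and kept. The tables differ in chemistry and cell filter and are not set against each other. The authors had discarded R1 cells expressing under 2000 genes, a step meant to take out cells with much mitochondrial RNA, and it bears directly on the mitochondrially encoded values of WT and dCD.

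The promoters of the nuclear members were read from RefSeq (GRCm38.p6), as windows of 300 bases reaching from 250 bases before to 50 bases after each start. The table held 65 windows for 63 of the members, out of 32851 windows in all, and the 13 mitochondrially encoded genes are transcribed from promoters of the mitochondrial genome itself. Member windows had a median of 19 CpG (quartiles 15 and 25) against 7 in all windows. The word GCGCATGC, which the factor NRF1 is known to bind, or its reverse complement GCATGCGC, was found in 9 member windows (13.8%) and in 2.71% of all windows. The ETS-type word CGGAAG or CTTCCG was in 26 (40%) and 16.9%, and the YY1 word AAGATGGC or GCCATCTT in 8 (12.3%) and 2.75%. Both strands were searched, and the words can overlap each other in a window. A match is a description of the letters only.

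*Cox6a1* (complex IV) and *Sdhb* (the iron-sulfur subunit of complex II) are shown as genes that carry the NRF1 word and are called lower in d2 EpiLC below. The assembly factor *Ndufaf5* also meets both conditions and is not shown. The other genes with the word, *Ndufa6*, *Ndufa8*, *Ndufa11*, *Ndufaf4*, *Uqcr11* and *Uqcrc1*, were not called lower there. *Cox5a*, *Cox6b1*, *Cox6b2*, *Cox7a1*, *Ndufb4* and *Ndufb5* were called lower and had windows without the word. Capitals mark the word or its reverse complement, which overlap in *Cox6a1*. The 250 bases before each start were taken from chr5:115348959-115349208 (minus strand) for *Cox6a1* and chr4:140961021-140961270 (plus strand) for *Sdhb*.
Cox6a1: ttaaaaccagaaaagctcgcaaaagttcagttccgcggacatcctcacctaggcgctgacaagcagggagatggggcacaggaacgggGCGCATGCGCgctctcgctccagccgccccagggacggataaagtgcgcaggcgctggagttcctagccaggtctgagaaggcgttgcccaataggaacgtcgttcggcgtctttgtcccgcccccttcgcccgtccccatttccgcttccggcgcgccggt
Sdhb: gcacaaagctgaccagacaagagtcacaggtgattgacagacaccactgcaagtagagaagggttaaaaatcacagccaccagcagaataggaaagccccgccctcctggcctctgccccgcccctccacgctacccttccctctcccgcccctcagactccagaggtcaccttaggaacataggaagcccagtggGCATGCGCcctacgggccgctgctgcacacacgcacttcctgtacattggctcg

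For isoform pairs of complex IV, the ubiquitous *Cox7a2* and the heart and muscle isoform *Cox7a1* are shown beside the ubiquitous *Cox6b1* and the testis isoform *Cox6b2*, because *Cox7a1* and *Cox6b2* had the highest ratios of the nuclear genes tested in listed PGCLC over the other EB cells on both days. Capitals mark CpG. In the 250 bases before the start, *Cox7a2* had 14 CpG and *Cox7a1* had 4, and *Cox6b1* had 14 and *Cox6b2* had 8. Over the full promoter windows these pairs had 20 and 7 CpG, and 17 and 10. *Cox8a* and *Cox8b* had 19 and 2 there, but *Cox7b* and its testis isoform *Cox7b2* went the other way, with 5 and 10. The pairs shown therefore do not stand for all isoform pairs. The stretches are chr9:79759854-79760103 (minus), chr7:30183921-30184170 (plus), chr7:30626115-30626364 (minus) and chr7:4753095-4753344 (minus), in the order printed.
Cox7a2: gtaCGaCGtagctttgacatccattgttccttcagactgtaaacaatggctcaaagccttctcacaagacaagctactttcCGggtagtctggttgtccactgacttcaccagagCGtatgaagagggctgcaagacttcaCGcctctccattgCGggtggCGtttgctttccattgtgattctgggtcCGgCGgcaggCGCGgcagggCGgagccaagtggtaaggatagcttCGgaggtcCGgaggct
Cox7a1: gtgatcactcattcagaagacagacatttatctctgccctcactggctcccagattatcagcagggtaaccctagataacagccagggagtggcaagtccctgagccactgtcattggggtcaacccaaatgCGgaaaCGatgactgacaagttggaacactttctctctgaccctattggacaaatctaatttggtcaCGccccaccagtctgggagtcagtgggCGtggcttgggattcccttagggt
Cox6b1: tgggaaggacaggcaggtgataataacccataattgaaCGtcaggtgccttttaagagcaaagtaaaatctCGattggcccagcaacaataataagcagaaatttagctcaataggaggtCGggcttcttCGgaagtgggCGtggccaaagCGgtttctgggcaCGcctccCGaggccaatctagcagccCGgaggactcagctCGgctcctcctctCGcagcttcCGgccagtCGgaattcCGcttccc
Cox6b2: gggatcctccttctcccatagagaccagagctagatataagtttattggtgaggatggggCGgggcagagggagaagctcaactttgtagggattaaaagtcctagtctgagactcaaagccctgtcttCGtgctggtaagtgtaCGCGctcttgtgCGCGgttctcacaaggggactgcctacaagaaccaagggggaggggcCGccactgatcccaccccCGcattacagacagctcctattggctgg

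The summed level of the 13 mitochondrially encoded genes differed more between the E14Tg2a libraries than that of the 76 nuclear genes. The mitochondrially encoded sum was 52863 CPM in d1 EpiLC, 46379 in 2i ESC, 43997 in S+L ESC, 41601 in d2 EB, 37430 in d4 EB, 35928 in EpiSC, 33540 in d2 EpiLC and 30158 in d3 EpiLC, so that the highest was 1.75-fold the lowest. The nuclear sum was 23127 CPM in 2i ESC, 22415 in d3 EpiLC, 22125 in S+L ESC, 22118 in EpiSC, 21164 and 20909 in d2 and d4 EB, 20162 in d1 EpiLC and 19534 in d2 EpiLC, a range of 1.18-fold. Thus the highest and the lowest mitochondrially encoded sums were those of d1 and d3 EpiLC, while 2i ESC had the highest nuclear sum and d2 EpiLC the lowest. Neighbors in the mitochondrially encoded order differed beyond counting error, but in the nuclear order EpiSC and S+L ESC did not (22118 CPM, 22036 to 22199, against 22125 CPM, 22033 to 22217). The spread between libraries of the same stage is unknown, and in mixed cells such as EB a sum cannot tell a change in cell makeup from a change in RNA per cell.

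**Figure D1:**
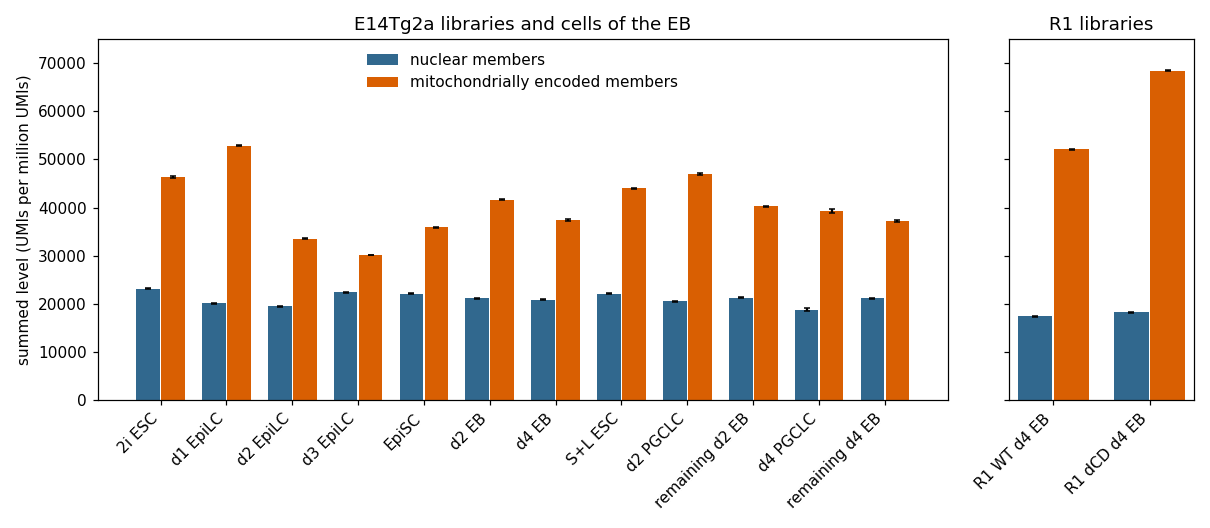
Summed level (CPM, y axis from 0) of the nuclear and the mitochondrially encoded members in the 8 E14Tg2a libraries, in listed PGCLC and the other EB cells, and, apart, in the 2 R1 libraries, with exact 95% Poisson intervals as error bars. The nuclear bars lie between 17401 and 23127, while the mitochondrially encoded bars of E14Tg2a range from 30158 in d3 EpiLC to 52863 in d1 EpiLC and those of R1 are 52143 in WT and 68385 in dCD.

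Per cell, the mitochondrially encoded part gave the same order of libraries as by sum. The median share of a cell's UMIs that came from the mitochondrially encoded genes was 5.03% in d1 EpiLC, 4.60% in 2i ESC, and 3.17% and 2.84% in d2 and d3 EpiLC, and at most 3 cells of an E14Tg2a library exceeded 10%. For the nuclear genes the medians of the 8 libraries lay between 1.96% (d2 EpiLC) and 2.34% (2i ESC). Within each of the 8 libraries (227 to 537 cells) the 2 shares were weakly and negatively related, with Spearman's rho from -0.371 in d1 EpiLC to -0.0631 in d4 EB. Both shares have the same total as denominator, and the nuclear share itself went with a cell's total at a rho of -0.482 in d1 EpiLC and 0.167 in d3 EpiLC, so these values describe the cells and nothing is read from them.

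**Figure D2:**
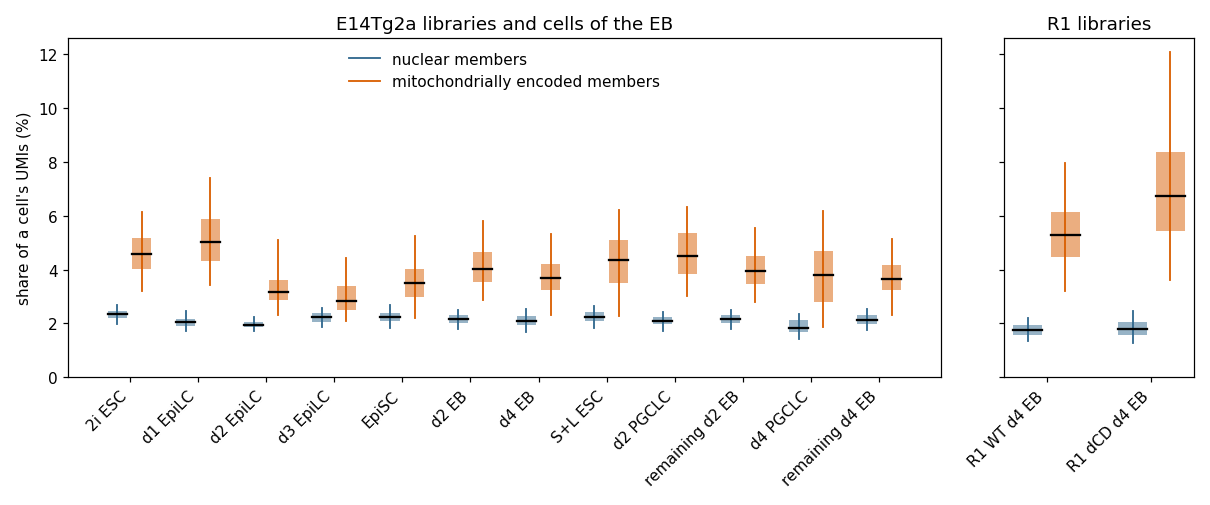
Share of a cell's UMIs (%) from nuclear and from mitochondrially encoded members in each group of cells; black bars are medians, boxes quartiles and lines the 5th to 95th percentiles over cells. The mitochondrially encoded share has its lowest median in d3 EpiLC (2.84%) and, in R1, a wider upper range in dCD (95th percentile 12.1%) than in WT (7.95%).

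Of the 76 nuclear genes, 72 had at least 800 UMIs over the 8 E14Tg2a libraries, and among these the highest library was on median 1.70-fold the lowest. The ratio was under 1.5 for 13 genes, between 1.5 and 2 for 41 and at least 2 for 18. It exceeded 4 for 3 genes: *Cox6b2* (4.13-fold), *Ndufa4l2* (89.0-fold) and *Cox4i2* (281-fold, on 3 UMIs in the lowest library). *Ndufa4l2* encodes a relative of the subunit *Ndufa4* and is known as a gene induced by hypoxia, and *Cox4i2* encodes the lung isoform of complex IV subunit 4. The highest library was 2i ESC for 15 of the 72 genes and d4 EB for 14, and the lowest was S+L ESC for 19. Of the mitochondrially encoded genes 12 had 800 UMIs, with a median of 2.11-fold, and the 3 complex IV genes among them stayed under 2-fold, as did *mt-Nd4* of complex I (1.86-fold).

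The first comparison followed the exit from naive pluripotency, from 2i ESC to d2 EpiLC, the stage competent for the germline. Of 71 nuclear members with at least 100 UMIs, 51 had a ratio below 1, 10 were called lower and 1 higher, and the median log2 ratio was -0.18. Over all 8412 genes tested 11.4% were lower and 28.4% higher, with a median of 0.25, so that relative to all genes the nuclear median was -0.43. Of the 12 mitochondrially encoded genes tested 5 were lower and 0 higher, all 12 had a ratio below 1, and their sum was 0.723-fold (0.720 to 0.726) that of 2i ESC, against 0.845-fold (0.839 to 0.850) for the nuclear sum.

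Complex IV held 6 of the 10 lower nuclear genes. *Cox5a*, which binds the complex IV core on the matrix side, was at 1210 CPM in 2i ESC and 668 CPM in d2 EpiLC (0.552-fold, 0.536 to 0.569). *Cox4i1*, the ubiquitous form of subunit 4, went from 1616 to 1066 CPM (0.660-fold, but short of the fold when cells were weighted equally, log2 -0.58), and *Cox6b1*, *Cox6a1*, *Cox6b2* and *Cox7a1* had ratios of 0.604, 0.661, 0.535 and 0.473. Both ubiquitous and tissue-restricted forms were therefore among the lower genes. Complex I contributed *Ndufb4* (286 to 130 CPM, 0.453-fold, 0.424 to 0.483) and *Ndufb5* (484 to 250 CPM, 0.516-fold), 2 accessory subunits of the membrane arm, while the catalytic core subunit *Ndufs1* stood at 26.5 and 34.0 CPM (1.28-fold, 1.09 to 1.52).

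In complex II, *Sdhb* was lower (296 to 169 CPM, 0.569-fold, 0.535 to 0.603), whereas the flavoprotein *Sdha* was at 76.3 and 78.0 CPM and the membrane anchors *Sdhc* and *Sdhd* had ratios of 0.681 and 0.880. *Sdhb* also held its highest level of the 8 E14Tg2a libraries in 2i ESC, the others lying between 137 CPM (d1 EpiLC) and 211 CPM (d4 EB). None of the 8 complex III genes was called, and the Rieske subunit *Uqcrfs1* had a ratio of 1.23. The assembly factors of complex I went both ways, with *Ndufaf5* lower (0.533-fold) and *Ndufaf7* higher (11.8 to 21.7 CPM, 1.84-fold, 1.46 to 2.35). *Ndufaf3* and *Ndufa2*, next highest, had ratios of 1.44 and 1.40 and just missed the fold.

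Among the mitochondrially encoded genes *mt-Nd2* (0.597-fold), *mt-Nd1* (0.612-fold), *mt-Co2* (0.617-fold), *mt-Nd3* (0.628-fold) and *mt-Cytb* (0.656-fold) were lower in d2 EpiLC, the last not when cells were weighted equally (log2 -0.56). The change was uneven across genes made from the same primary transcripts. *mt-Co1*, the catalytic subunit of complex IV, had a ratio of 0.900 (0.889 to 0.910), and *mt-Co3*, *mt-Atp6* and *mt-Nd4* had 0.749, 0.789 and 0.692. *mt-Nd4l* (0.757), *mt-Nd5* (0.893) and *mt-Atp8* (0.974, 0.790 to 1.20) rest on fewer UMIs, and *mt-Nd6*, the light-strand gene, had only 46 and 43 UMIs. *mt-Atp8* overlaps *mt-Atp6* and *mt-Nd4l* overlaps *mt-Nd4*, so the split of UMIs within these pairs is uncertain.

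The 3 EpiLC libraries did not form a straight course. *mt-Nd1* was at 6189 CPM in 2i ESC and at 8087, 3790 and 2970 CPM on d1, d2 and d3 of EpiLC induction, and *mt-Cytb* at 4089, 5386, 2682 and 2371 CPM. *mt-Atp6* followed with 9802, 13295, 7734 and 6138 CPM. All 3 were highest in d1 EpiLC, whereas *mt-Co3* was highest in 2i ESC (8890, 7681, 6661 and 6177 CPM) and *mt-Co2* likewise (6307, 5752, 3890 and 3674 CPM).

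**Figure D3:**
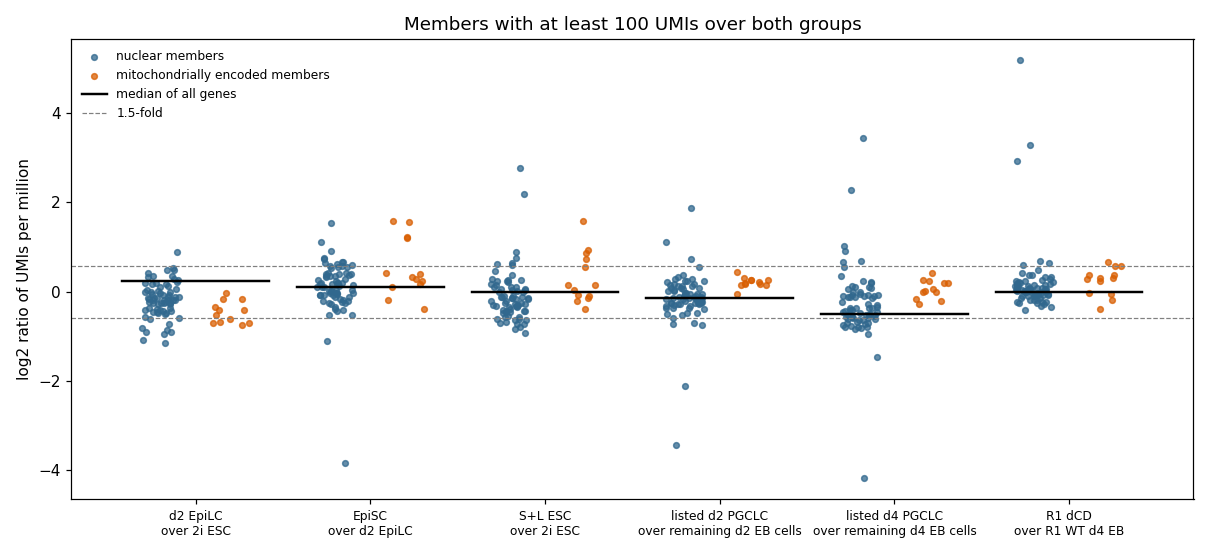
Log2 ratio of CPM for every member with at least 100 UMIs over both groups in the 6 comparisons (points), with the median of all genes tested (black bar) and the 1.5-fold limits (dashed). The mitochondrially encoded members lie below 0 in d2 EpiLC over 2i ESC (median -0.47) and mostly above it in dCD over WT (median 0.31), and the points far from the others are *Cox4i2*, *Ndufa4l2*, *Cox7a1*, *Cox6b2* and *Cox7b2*.

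The second comparison set EpiSC, which resemble the later epiblast and have little germline competence, against d2 EpiLC. Of 71 nuclear members tested, 10 were higher (14.1%) and 2 lower (2.82%) in EpiSC, where all 9242 genes gave 20.7% and 11.3%. Both shares were below those of all genes. The median log2 ratio was 0.13, and 0.03 relative to all genes. Centered on the median of all genes the split was 5 higher and 4 lower, beside 16.9% and 14.5% of all genes. The nuclear sum was 1.13-fold (1.13 to 1.14) and the mitochondrially encoded sum 1.07-fold (1.07 to 1.08), and the latter was 0.997-fold after centering.

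Of the 38 genes tested that were counted under complex I by symbol alone, 5 were higher and 1, *Ndufa4l2*, was lower. The subunit *Ndufa3* went from 78.4 to 148 CPM (1.89-fold, 1.74 to 2.05) and the assembly factor *Ndufaf4* from 53.5 to 117 CPM (2.18-fold, 1.98 to 2.40). The subunits *Ndufa2*, *Ndufa5*, *Ndufb4* and *Ndufc1* and the assembly factor *Ndufaf2* had ratios between 1.56 and 1.68. *Uqcr11* and *Uqcrh*, 2 small subunits of complex III, had 1.52 and 1.54, and *Cox7a1* had 2.90 (9.77 to 28.3 CPM). Lower genes were *Ndufaf7* (21.7 to 10.0 CPM, 0.462-fold) and *Ndufa4l2*, which had 250 UMIs in d2 EpiLC and 20 in EpiSC (22.4 and 1.57 CPM, 0.0699-fold, 0.0420 to 0.110). *Ndufa4l2* reached 100 UMIs only through d2 EpiLC. *Ndufv1*, the next lowest, stood at 0.699-fold.

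In the mitochondrial genome 4 genes were higher in EpiSC and 0 lower. *mt-Nd3* was at 313 CPM in d2 EpiLC and 921 CPM in EpiSC (2.94-fold, 2.83 to 3.06). *mt-Nd4l* (31.1 to 93.4 CPM), *mt-Atp8* (18.5 to 43.5 CPM) and *mt-Nd6* (3.85 to 8.93 CPM, from 43 and 114 UMIs) had ratios of 3.00, 2.35 and 2.32. *mt-Co1* (0.765-fold) and *mt-Co3* (0.875-fold) lay on the other side of 1, and the remaining 7 genes had ratios between 1.07 and 1.33. In EpiSC *mt-Nd3* had its highest level of the 8 E14Tg2a libraries and *mt-Co1* and *mt-Co3* their lowest.

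The third comparison was between ESC kept in serum and LIF and ESC kept in 2i. Here nuclear members were called in both directions: of 72 tested, 7 were higher and 11 lower in S+L ESC, against 14.3% and 11.1% of 8075 genes, and the median log2 ratio was -0.17 with that of all genes at -0.01. Scaled to UMIs outside mitochondrially encoded and ribosomal protein genes, 7 were higher and 7 lower, beside 17.1% and 8.41% of all genes. *Uqcrc1* and *Uqcrc2*, the core proteins of complex III, had 267 and 129 CPM in 2i ESC and 140 and 72.9 CPM in S+L ESC (0.526-fold, 0.492 to 0.562, and 0.564-fold, 0.513 to 0.619). *Sdhb* (0.583-fold, 0.548 to 0.619), *Sdha* (76.3 to 47.9 CPM, 0.628-fold), *Ndufa9*, *Ndufa10*, *Ndufs8*, *Ndufv1*, *Ndufb5*, *Ndufb9* and *Ndufaf6* were also lower, with the latter 7 between 0.606 and 0.655. *Sdhc* and *Sdhd* had ratios of 1.0 and 0.834.

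The 7 higher genes included the tissue-restricted complex IV isoforms *Cox4i2*, *Cox7a1* and *Cox6b2*, of which *Cox4i2* reached 100 UMIs only through S+L ESC. *Cox4i2* had 16 UMIs in 2i ESC and 126 in S+L ESC (1.83 and 12.5 CPM, 6.83-fold, 4.04 to 12.3), *Cox7a1* went from 20.7 to 38.4 CPM (1.86-fold, 1.55 to 2.23) and *Cox6b2* from 98.8 to 154 CPM (1.56-fold, 1.43 to 1.70). *Ndufa4l2* was at 30.6 CPM in 2i ESC and 139 CPM in S+L ESC (4.56-fold, 4.00 to 5.21). *Cox7c*, *Ndufa2* and *Ndufa7*, which are widely expressed, had 1.68, 1.54 and 1.51. The heart isoform *Cox6a2* had 1 UMI in 2i ESC and 31 in S+L ESC, too few to be counted among the genes tested.

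The mitochondrially encoded sum of S+L ESC was 0.949-fold (0.945 to 0.953) that of 2i ESC, yet 4 genes were higher: *mt-Nd6* (5.25 to 15.7 CPM, 3.00-fold, 2.15 to 4.26), *mt-Atp8* (1.91-fold), *mt-Nd5* (123 to 225 CPM, 1.83-fold, 1.70 to 1.97) and *mt-Nd4l* (1.65-fold, but log2 0.38 and short of the fold in cells of a middle depth). None was lower by the fold, and the lowest ratio was that of *mt-Nd1* (0.769, 0.760 to 0.779). The remaining 8 genes lay between 0.862 (*mt-Co2*) and 1.47 (*mt-Nd3*).

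Listed PGCLC were next compared with the remaining cells of the same EB. In d2 EB, 3 nuclear members were higher and 6 lower of 72 tested, beside 8.53% and 20.8% of 8090 genes, and the median log2 ratio of -0.14 was close to that of all genes (-0.13). Both centering on that median and scaling outside mitochondrially encoded and ribosomal protein genes gave 4 higher and 4 lower. Of all genes, 12% were higher and 15.9% lower when centered, and 11.8% and 16% with that scaling. In d4 EB, 6 were higher and 20 lower of 72, beside 10.2% and 46.2% of 7502 genes. The d4 median was -0.37 where all genes had -0.50, so relative to all genes it was 0.13. Centered, 14 were higher and 2 lower, and with the other scaling 8 and 3. All genes gave 24.1% higher and 27.5% lower when centered, and 18.4% and 32.8% with the other scaling. The share of all genes called lower was larger than that of the members, and the 20 lower members are not read as a result about the chain. The listed d4 PGCLC comprise 44 cells, and the d4 EB cluster that held all 44 had 49 cells. That cluster had 7504 CPM of the erythroid genes *Hbb-bh1*, *Hba-x*, *Hbb-y* and *Gata1* against 69.7 CPM in the other d4 EB cells. The erythroid level of the 44 listed cells alone was not taken, and the part of these genes in the PGCLC values was not tested.

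Complex IV isoforms stood at both ends of the PGCLC comparisons. *Cox7a1* had 29.0 CPM in d2 PGCLC, against 7.85 CPM in the remaining d2 EB cells (3.69-fold, 2.71 to 5.01), and at 104 and 9.59 CPM in d4 (10.9-fold, 8.10 to 14.7). *Cox6b2* was at 79.1 and 36.7 CPM in d2 (2.15-fold, 1.83 to 2.53) and at 127 and 26.2 CPM in d4 (4.85-fold, 3.88 to 6.03). *Cox4i2* had 4.77 CPM in d2 PGCLC, against 51.2 CPM in the remaining cells (0.0932-fold, 0.0507 to 0.158), and 4.74 and 85.5 CPM in d4 (0.0554-fold, 0.0180 to 0.130, from 5 UMIs in PGCLC). It reached 100 UMIs only through the remaining cells (14 UMIs in PGCLC and 600 in the remaining cells in d2, 5 and 731 in d4). The ubiquitous partners differed less: *Cox4i1* had ratios of 1.02 and 1.10, and *Cox7a2* stood at 577 CPM in d4 PGCLC and 501 CPM in the remaining cells (1.15-fold). *Cox6b1* was called lower in d4 PGCLC (log2 -0.60). It fell short of the fold when centered and with the scaling outside mitochondrially encoded and ribosomal protein genes (highest log2 -0.10).

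Since a UMI counts 1 transcript whatever its length, the isoforms of a pair can be set beside each other as a share of the pair. *Cox7a1* made up 2.87% (2.30 to 3.54) of *Cox7a1* and *Cox7a2* in d2 PGCLC and 0.932% in the remaining d2 EB cells, and 15.3% (12.8 to 18.2) and 1.88% in d4. In the 8 libraries its share was 1.38% to 5.43%, highest in S+L ESC. *Cox6b2* made up 12.3% of *Cox6b1* and *Cox6b2* in d2 PGCLC and 5.14% in the remaining d2 cells. In d4 its share was 20.7% (17.7 to 24.0) in PGCLC and 3.42% in the remaining cells. It was 13.1% in 2i ESC, 12.2%, 11.8% and 15.9% in d1, d2 and d3 EpiLC, 10.6% in EpiSC and 23.9% in S+L ESC. The *Cox6b2* share of d2 PGCLC was thus near that of d2 EpiLC, from which the EB were made. *Cox4i2* made up 0.420% and 0.370% of subunit 4 in d2 and d4 PGCLC, against 4.40% and 6.87% in the remaining cells, and under 0.3% in 2i ESC, in EpiSC and in the 3 EpiLC libraries. The share within a pair compares isoforms and does not rest on how the library total was scaled.

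**Figure D4:**
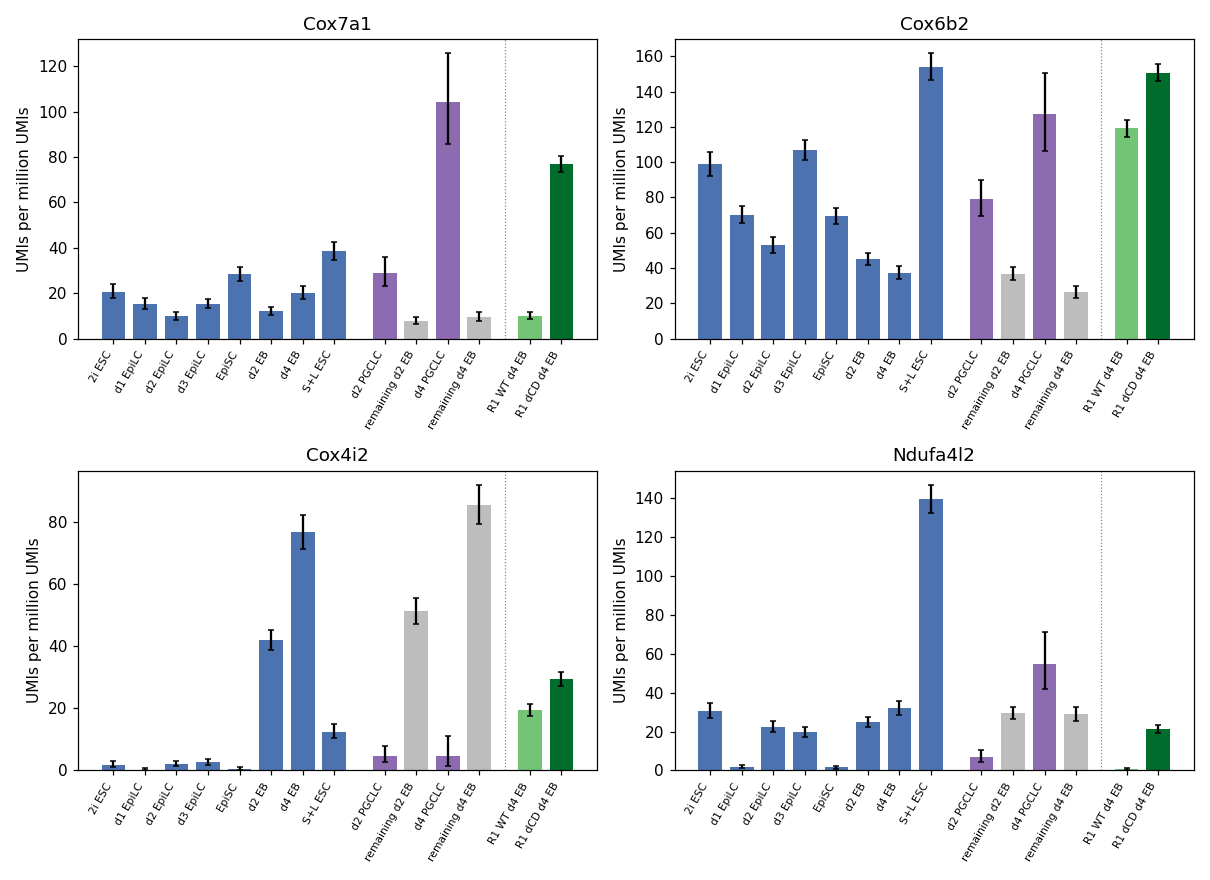
Level (CPM, y axes from 0, each on its own scale) of *Cox7a1*, *Cox6b2*, *Cox4i2* and *Ndufa4l2* in the 8 E14Tg2a libraries (blue), listed PGCLC (purple), the EB cells that remain (grey) and, right of the dotted line, R1 WT and dCD d4 EB (light and dark green), with exact 95% Poisson intervals. *Cox7a1* stands at 104 in d4 PGCLC and 76.8 in dCD, *Cox4i2* at 85.5 in the remaining d4 EB cells and *Ndufa4l2* at 139 in S+L ESC.

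*Ndufa4l2* went in opposite directions in the EB: 6.82 CPM in d2 PGCLC against 29.5 CPM in the remaining d2 cells (0.231-fold, 0.139 to 0.362, 20 UMIs), and 55.0 against 29.0 CPM in d4 (1.90-fold, 1.40 to 2.53, 58 UMIs). On both days it reached 100 UMIs only through the remaining cells (346 UMIs in d2 and 248 in d4). The d4 value fell short of the fold when cells were weighted equally (log2 0.45). *Ndufa5*, an accessory subunit of complex I, was lower on both days (0.605-fold and 0.364-fold, 0.295 to 0.446), as was *Ndufb7* (0.617-fold and 0.611-fold). *Ndufb10* was at 0.520-fold in d4, and fell short of the fold when centered (log2 -0.45). The assembly factors *Ndufaf3* in d2 (28.3 to 47.0 CPM, 1.66-fold, 1.35 to 2.03) and *Ndufaf6* in d4 (24.6 to 50.3 CPM, 2.05-fold, 1.48 to 2.78) were higher, as were *Ndufa6* (1.59-fold) and *Cox7c* (1.61-fold) in d4, and *Ndufaf7* and *Uqcrb* were lower in d2 (0.593-fold and 0.662-fold). *Ndufaf7* in d2 fell short of the fold when cells were weighted equally and in cells of a middle depth (log2 -0.20). All 4 *Sdh* genes had ratios below 1 on both days, between 0.776 and 0.980 in d2 and between 0.606 (*Sdhb*) and 0.736 in d4, but of these 8 values only that of *Sdhb* in d4 passed the fold. All genes had a median ratio of 0.708 in d4, and *Sdhb* fell short of the fold when centered (log2 -0.22) and with the scaling outside mitochondrially encoded and ribosomal protein genes.

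None of the 12 mitochondrially encoded genes tested was called in PGCLC on either day. In d2 the ratios lay between 0.971 (*mt-Nd5*) and 1.36 (*mt-Atp8*), 11 of 12 above 1, and the sum was 1.17-fold (46996 and 40250 CPM, 1.16 to 1.17). In d4 they lay between 0.822 (*mt-Atp8*, 29 UMIs) and 1.33 (*mt-Nd3*, 1.23 to 1.43), 7 of 12 above 1, and the sum was 1.05-fold (39247 and 37206 CPM, 1.04 to 1.07). Relative to the median ratio of all genes, the sums were 1.28-fold in d2 and 1.49-fold in d4. *mt-Cytb* (1.12 and 0.867) and *mt-Atp6* (1.19 and 0.897) stood on opposite sides of 1 on the 2 days, and *mt-Co3* (1.20 and 1.18), *mt-Co1* (1.20 and 1.15) and *mt-Co2* (1.17 and 1.14) on the same side. Median shares per cell were 4.50% in d2 PGCLC and 3.97% in the remaining cells, and 3.81% and 3.65% in d4.

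The last comparison was between dCD and WT d4 EB of R1, with 1 library each, in which genotype and clone cannot be told apart. The mitochondrially encoded sum was 52143 CPM in WT and 68385 CPM in dCD (1.311-fold, 1.308 to 1.315), and the nuclear sum 17401 and 18258 CPM (1.05-fold, 1.04 to 1.05). Of 74 nuclear members tested 6 were higher and 0 lower in dCD, where 14.8% and 11.8% of 11842 genes were, and the median log2 ratio was 0.05 against -0.00 for all genes. Of the 13 mitochondrially encoded genes 1 was higher. The cells of the 2 libraries fell largely into different clusters when clustered without the members (9 clusters), and 4 of these held at least 50 cells of each library.

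The highest ratios were those of the catalytic subunit *mt-Co1*, of *mt-Nd6* and of *mt-Co3*, a further core subunit of complex IV. *mt-Co1* was at 7400 CPM in WT and 11660 CPM in dCD (1.58-fold, 1.57 to 1.59), and short of the fold without cells over 10% mitochondrially encoded UMIs (log2 0.57) and within clusters 4 and 6. *mt-Co3* was at 10000 and 14956 CPM (1.495-fold, 1.487 to 1.504, just short of the fold) and *mt-Co2* at 8656 and 11274 CPM (1.30-fold). *mt-Nd6* was just short of it as well (1.499-fold, 1.36 to 1.66, 623 and 1038 UMIs), and *mt-Atp6*, *mt-Nd1*, *mt-Nd2*, *mt-Nd3* and *mt-Nd4* had between 1.18 and 1.29. On the other side of 1 stood *mt-Nd4l* (204 to 157 CPM, 0.767-fold, 0.733 to 0.802), *mt-Nd5* (0.876-fold), *mt-Atp8* (0.963, 0.875 to 1.06) and *mt-Cytb* (0.980, 0.972 to 0.987). Of all mitochondrially encoded UMIs *mt-Co1* took 14.2% in WT and 17.1% in dCD, and *mt-Cytb* 12.5% and 9.35%.

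Within clusters the difference in the sum was of unequal size. It was 1.30-fold in cluster 1 (481 dCD and 103 WT cells, 61464 CPM in WT) and 1.31-fold in cluster 8 (112 and 153 cells, 39221 CPM in WT), but 1.04-fold in cluster 4 (62 and 297 cells, 52561 CPM in WT) and 1.07-fold in cluster 6 (232 and 60 cells, 58658 CPM in WT). *mt-Co1* had 1.56, 1.59, 1.23 (1.19 to 1.26) and 1.29 (1.26 to 1.33) in clusters 1, 8, 4 and 6, and *mt-Nd4l* was at 0.859, 0.892, 0.627 and 0.799. Thus *mt-Co1* was on the same side of 1 in all 4 clusters and so was *mt-Nd4l* on the other side, whereas *mt-Cytb* had 1.10 and 1.06 in clusters 1 and 8 and 0.871 and 0.790 in clusters 4 and 6. Cluster 1 has the naive genes *Klf4*, *Zfp42*, *Esrrb*, *Tbx3* and *Klf2* summed at 1459 CPM, against 376 CPM in the other R1 cells.

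**Figure D5:**
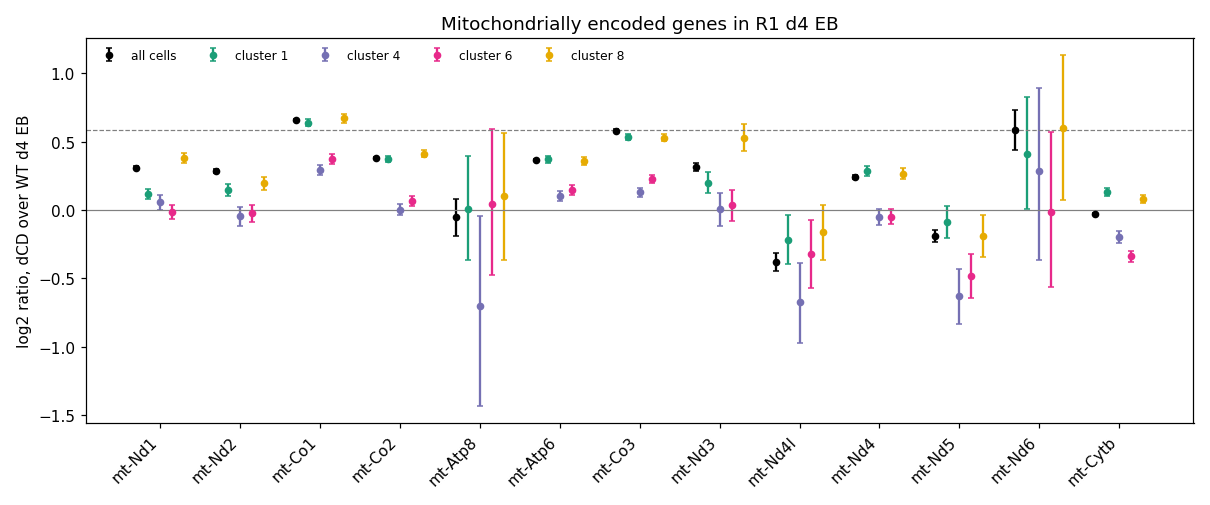
Log2 ratio of CPM, dCD over WT d4 EB, for the 13 mitochondrially encoded genes over all cells (black) and within the 4 clusters with at least 50 cells of each library (colors), with exact 95% intervals; the dashed line marks 1.5-fold. *mt-Co1* lies above 0 in all 4 clusters and *mt-Nd4l* below 0, and clusters 4 and 6 lie nearer to 0 than clusters 1 and 8 for *mt-Co1*, *mt-Co2* and *mt-Co3*.

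Cells with a high mitochondrially encoded share were more frequent in dCD. The share exceeded 10% in 28 of 1416 WT cells (1.98%, 1.32 to 2.85) and 184 of 1699 dCD cells (10.8%, 9.39 to 12.4), and medians were 5.30% and 6.74%. Of the 184 dCD cells, 97 were in cluster 1 and 63 in cluster 2, and cluster 2 had 471 dCD and 7 WT cells. In dCD, cells over 10% had a median of 8213 UMIs and the others 12169 UMIs. Without the cells over 10% the sum was 1.24-fold higher in dCD. RNA quality and the stated removal of cells with few genes move with this value, and their part in it was not tested.

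The 3 highest nuclear ratios in dCD over WT were those of *Ndufa4l2* and of 2 tissue-restricted complex IV isoforms. *Ndufa4l2* had 12 UMIs in WT and 488 in dCD (0.583 and 21.3 CPM, 36.6-fold, 20.8 to 71.3), *Cox7b2*, a testis isoform, had 10 and 108 UMIs (0.486 and 4.72 CPM, 9.71-fold, 5.08 to 20.8), and *Cox7a1* had 208 and 1757 UMIs (10.1 and 76.8 CPM, 7.60-fold, 6.58 to 8.81). *Cox7b2* and *Ndufa4l2* reached 100 UMIs only through dCD. *Ndufv3* (116 to 187 CPM, 1.61-fold, 1.53 to 1.69), *Ndufaf7* (14.3 to 22.3 CPM, 1.56-fold) and *Cox4i2* (19.4 to 29.5 CPM, 1.52-fold, 1.34 to 1.72) were also higher. *Cox4i2* was no longer so with a pseudocount of 1 CPM, in cells of a middle depth or within cluster 4 (lowest log2 0.04). It also fell short without cells that had a UMI of at least 2 PGC markers. *Cox8c*, another testis isoform, had 2 and 51 UMIs and was not counted among the genes tested. The lowest ratios were those of *Ndufaf2* (0.753), *Ndufs4* (0.788) and *Ndufa13* (0.799), none past the fold.

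*Cox7a1* took 1.89% (1.64 to 2.16) of *Cox7a1* and *Cox7a2* in WT and 12.6% (12.0 to 13.1) in dCD, with *Cox7a2* itself at 526 and 534 CPM. Within clusters it was at 26.3 CPM in WT and 133 CPM in dCD in cluster 1 (5.05-fold, 3.74 to 7.0), at 7.04 and 19.1 CPM in cluster 8 (2.71-fold, 1.61 to 4.68), at 12.3 and 20.3 CPM in cluster 6 (1.65-fold, 0.857 to 3.48) and at 3.91 and 3.84 CPM in cluster 4 (0.983-fold, 0.182 to 3.47, 18 UMIs in all). In WT its highest level was 36.7 CPM in cluster 9, a PGC-like cluster in which all 7 markers of PGC were at least 2-fold higher than in the other cells. In dCD cells of cluster 2 it was at 107 CPM. *Cox4i2* was higher in dCD in cluster 8 (19.0 to 53.9 CPM, 2.84-fold, 2.08 to 3.91) and in cluster 6 (4 and 52 UMIs), and at 23.7 and 24.3 CPM in cluster 4.

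*Ndufa4l2* had 2 UMIs in WT cells of cluster 1 and 220 in dCD cells (1.20 and 29.8 CPM), and in cluster 8 there were 0 in WT, which allows up to 3 UMIs, and 11 in dCD (at least 4.97-fold higher). *Ndufv3* had ratios of 1.24, 1.18, 1.39 and 1.61 in clusters 1, 4, 6 and 8, above 1 in each. *Cox5a* was at 532 CPM in WT and 742 CPM in dCD (1.40-fold), with 1.46 in cluster 1 and 0.937 (0.875 to 1.0) in cluster 8. The complex II genes lay between 0.852 (*Sdhd*) and 1.04 (*Sdhc*), and *Ndufs1*, *Uqcrfs1* and *Cox4i1* at 1.07, 0.998 and 1.08.

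Other genes of oxidative metabolism were counted in the same way from lists drawn up from general knowledge. For mitochondrial transcription, replication and RNA stability, 7 of 14 genes tested were higher and 1 lower when d2 EpiLC were set against 2i ESC (median ratio 1.52), beside the lower mitochondrially encoded sum. They included *Ssbp1*, which binds single-stranded mitochondrial DNA (144 to 266 CPM, 1.85-fold), the DNA polymerase subunits *Polg* (1.88-fold) and *Polg2* (1.86-fold) and *Lrpprc*, which stabilizes mitochondrial mRNA (24.2 to 38.6 CPM, 1.60-fold), while *Tfam* had 1.49, *Polrmt* 1.11 and *Tefm* 0.640. Over all genes 28.4% were higher in this comparison. In S+L ESC 5 of 17 ATP synthase genes were lower and 1 higher (*Atp5b* 0.600-fold, *Atp5a1* 0.664-fold), and 4 of 12 citrate cycle genes were lower and 1 higher (*Fh1* 0.566-fold, *Mdh2* 0.572-fold), beside 11.1% of all genes lower and 14.3% higher. In d4 PGCLC 6 of 17 and 6 of 12 were lower and 0 higher in these lists, with citrate synthase *Cs* at 0.457-fold, beside 46.2% of all genes. In dCD 0 of 17 ATP synthase genes and 1 of 12 citrate cycle genes (*Suclg2*, 1.65-fold, higher) passed the fold, beside 14.8% of all genes higher and 11.8% lower.

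The testis form of cytochrome c, *Cyct*, is not a member but carries electrons between complexes III and IV. It had 22 UMIs in 2i ESC, 78 in d2 EpiLC and 328 in S+L ESC (2.51, 6.99 and 32.5 CPM, the last 12.9-fold that of 2i ESC, 8.39 to 20.9). It had 20 UMIs in d2 PGCLC and 5 in the remaining d2 cells, 14 and 4 in d4, and 7 in WT and 147 in dCD (0.340 and 6.42 CPM, 18.9-fold, 8.94 to 47.8). The somatic *Cycs* was at 191 CPM in WT and 161 CPM in dCD.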

How the data were processed

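The members and gene lists were chosen with earlier results of these data known. scRNA-seq was done in 10 libraries, 1 per condition. The authors deposited UMI counts per gene and cell, made with Cell Ranger on GRCm38 (mm10), without further scaling. The 8 E14Tg2a libraries had been aggregated to equal mapped reads per cell, which removes reads from deeper libraries, and R1 cells expressing under 2000 genes had been discarded, which can thin out cells rich in mitochondrial RNA. The gene annotation is not given in the sources used here. Stages came from barcode suffixes and PGCLC from the barcodes in the study's supplement, and 27645 Ensembl identifiers were paired with symbols through GENCODE M21.

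CPM have exact Poisson, ratios exact conditional and shares Clopper-Pearson intervals at 95%. With 3 UMIs as the limit a count of 0 allows, folds against 0 are lower bounds. Processed pseudogenes and nuclear copies of mitochondrial DNA can share reads with members, so levels of such genes are uncertain. EB cells were clustered by k-means on 20 principal components of 2000 variable genes without the members (3 clusters in d2 EB, 4 in d4 EB, 9 in R1). Doublets were called with Scrublet in scanpy 1.11.5. Named are the 13 mitochondrially encoded genes, the 3 highest and 3 lowest nuclear ratios of each comparison, isoforms with 50 UMIs, *Sdha* to *Sdhd*, *Ndufs1*, *Uqcrfs1* and *Cox4i1*, and other genes that passed the fold or stood beside them were named after their values were seen. Computation used scikit-learn 1.9.0, pandas 2.3.3, scipy 1.17.1 and numpy 2.4.6 in Python 3.11.15, and the computation was tested on simulated data. Alternatives changed the minimum of UMIs, fold, pseudocount, scaling, weighting of cells, doublets, depth, cells over 10% mitochondrially encoded UMIs and clusters.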

Additional observations from a re-analysis of the deposited data

Results flagged for a closer look

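*Ndufa4l2* differed in direction between the days of EB differentiation. It was lower in listed d2 PGCLC than in the remaining d2 EB cells (log2 ratio -2.12, 20 and 346 UMIs) and higher in listed d4 PGCLC (log2 ratio 0.92, 58 and 248 UMIs). When cells were weighted equally the d4 value was 0.45 and no longer past the fold. The difference between the days was not tested, since each day had 1 library.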

How the results depend on the processing

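No paired analysis was possible because every condition had 1 library and the labels give no replicate numbers. Of 146 recomputed counts of called nuclear members, 111 stayed within 1.5 times the value reported. The fold of 1.5 was replaced by 2-fold and by a smaller fold, that is 5 to 4. In d2 EpiLC over 2i ESC, higher genes numbered 3 with a minimum of 10 UMIs, 0 at 2-fold and 8 at the smaller fold, and lower genes 2 at 2-fold, 23 at the smaller fold and 23 when centered on the median of all genes. In the same order, 36.1%, 13.8% and 44.9% of all genes were higher, and 6.44%, 17.7% and 17.2% lower. In EpiSC over d2 EpiLC, higher genes numbered 2 at 2-fold, 25 at the smaller fold and 5 when centered, and lower genes 6 with 10 UMIs, 8 at the smaller fold, 4 when centered and 1 in cells of a middle depth. The matching shares of all genes were 9.07%, 34.1% and 16.9% higher, and 17.1%, 21.2%, 14.5% and 10.7% lower. In S+L ESC over 2i ESC, 2 were higher and 0 lower at 2-fold, 27 lower at the smaller fold and 7 lower when scaled outside mitochondrially encoded and ribosomal protein genes. All genes gave 6.12% higher and 3.1% lower, then 25% and 8.41% lower. In d2 PGCLC, 2 were lower at 2-fold, and 6 were higher and 14 lower at the smaller fold. Among all genes 10% were lower at 2-fold, and 16.8% were higher and 35.2% lower at the smaller fold. In d4 PGCLC, 3 were higher and 2 lower at 2-fold, 40 lower at the smaller fold, 3 lower outside mitochondrially encoded and ribosomal protein genes, and 14 higher and 2 lower when centered. For all genes these were 5.12% and 30.2%, 58.2%, 32.8%, and 24.1% and 27.5%. In dCD over WT, higher genes numbered 3 at 2-fold, 12 at the smaller fold, 3 at a middle depth, and 2, 1, 0 and 3 within clusters 1, 4, 6 and 8, and lower genes 3 at the smaller fold and 2 within cluster 4. The shares of all genes were 7.45%, 25% and 13.7% higher, and 12.6%, 6.4%, 10.8% and 7.72% higher within these clusters. Lower shares of all genes were 22.9% and 6.39%. The cause was not tested, beyond what a changed fold does by construction. Of 67 named results past the fold, 53 stayed past it under every alternative run and 1 changed sign, that of *Cox7a1* in dCD within cluster 4 (log2 ratio -0.025, 18 UMIs). The mitochondrially encoded sum of dCD ranged from 1.04-fold to 1.39-fold, and the nuclear sum crossed 1 within clusters 4, 6 and 8 (lowest 0.953). Nuclear sums crossed 1 by scaling or depth for S+L ESC (up to 1.01) and for d2 and d4 PGCLC (up to 1.06 and 1.26). The mitochondrially encoded sums of EpiSC (down to 0.997) and S+L ESC (up to 1.005) did so too. Those of listed d2 and d4 PGCLC stayed above 1, at 1.05-fold to 1.28-fold and 1.04-fold to 1.49-fold. Depth limits genes such as *mt-Nd6* and *Cox8c*, whose values rest on few UMIs.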
